A study of Mus musculus with 18 samples.

Results

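The 8 genes Foxn1, Aire, Krt5, Krt8, Krt14, Prss16, Ly75 and Ctsl, which are characteristic of thymic epithelial cells, were followed through 18 arrays of mouse thymus cells. They were chosen by name, taking every probe that the array design assigns to them, which gave 11 probes for the 8 genes out of 43426 probes and 25888 gene names. Foxn1, Krt8 and Prss16 had 2 probes each and the other genes 1. The arrays are 1-colour Agilent whole-genome arrays, 1 per RNA sample. All samples came from thymus of C57BL/6 mice killed 2 weeks after injection of anti-DLL4, an antibody that binds a Notch ligand, or of an isotype control antibody. Total thymocytes gave 3 anti-DLL4 and 4 isotype samples. DN cells, sorted as CD4-CD8-, gave 3 and 3, and DN1 cells, sorted as CD4-CD8-CD44+CD25-, gave 3 and 2. No label says that epithelium was isolated, and no step that removes it is given in the sources used here. The comparisons therefore ask whether epithelial RNA was present in the cell suspensions and whether it changed with the antibody. The study's description counts 3 isotype thymocyte samples, but 4 are labelled so and all of them entered the comparisons. It speaks of 4 animals per antibody, and no label ties a sample to an animal, so the p-values measure the spread between samples, which may share animals.

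Thymic epithelial cells form the stroma in which T cells develop. Cortical epithelium, marked by Krt8, Prss16 and Ly75, presents DLL4 to entering progenitors and supports positive selection, while medullary epithelium, marked by Krt5, Krt14 and Aire, displays tissue antigens for negative selection. Several of these genes are also active in blood-derived cells of the thymus: Ly75, also known as DEC-205, is a receptor of dendritic cells, Ctsl is abundant in macrophages, and Aire is found in some thymic B cells. In bulk samples fewer cells of a type and less RNA per cell cannot be told apart, and which cells gave the RNA was not measured.

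Because the genes with 2 probes carry most of what follows, the 30 bases at the 3′ end of these 60-base probes are shown 5′ to 3′, together with Krt5. In Krt5 the capitals mark AATAAA, the signal that precedes the end of most transcripts. It was searched on the probe strand only, and 4.87% of the 43420 probes of full length hold it.

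Foxn1 probe 1: ccactcagccaacttatttgttagccagaa
Foxn1 probe 2: aactcaagctctacacacctgctcatcatg
Krt8 probe 1: cttaggaggaatttcctatctgggatatcc
Krt8 probe 2: agtgaatggccactgaagtccttgccagcc
Prss16 probe 1: ggtagtgatattctgtatggtaaatgtcag
Prss16 probe 2: agttgccgggcaaaaaatacaggatgtagt
Krt5: tgacttcctccagagtctgtccAATAAAat

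All 11 probes lie on the minus strand of the mm8 build, going by the descending coordinates in the files. The Foxn1 probes are at chr11:78174818-78174877 and chr11:78174653-78174712, 165 bases apart, with 41.7% and 51.7% G and C. The Krt8 probes are at chr15:101824817-101824876 and chr15:101824949-101825008, 132 bases apart. The Prss16 probes are at chr13:22009965-22010024 and chr13:22012051-22012110, 2086 bases apart. Probe 1 of Prss16 was designed on a RefSeq transcript and lies further towards the 3′ end, whereas probe 2 was designed on a cDNA clone. Krt5 is at chr15:101535117-101535176, Aire at chr10:77433207-77433266, Ly75 at chr2:60093144-60093203 and Ctsl at chr13:64378710-64378769. The Krt14 probe spans 606 bases of the genome, chr11:100019459-100020064, so its sequence is not continuous in the genome. Exons and untranslated regions of this build were not analysed here.

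Levels are given on a log2 scale, as processed signal relative to the 75th percentile of the same array, so a spot at that percentile reads 0. Levels of different probes were not set against each other, because probes differ in how they bind. The 75th percentile, a measure of array strength, ran from 260.2 to 4295.4, and 59.9% to 84% of spots were well above background. Replicates 1 and 2 of the isotype DN cells were the dimmest arrays, at 260.2 and 337.9, and replicate 3 was at 675.5, against 741.3 to 1076.8 in anti-DLL4 DN cells. Treatment and array strength thus moved together in DN cells. Replicate 1 of the isotype thymocytes was also dim, at 524. As a check of the labelled tissue, all 12 of 12 genes of a list for double-positive thymocytes, such as Cd4, Cd8a and Rag1, were well above background on all 18 arrays. The mean of that list was 4.22 to 5.08 in isotype thymocytes, 3.2 to 3.58 in isotype DN cells and 1.98 to 2.71 in isotype DN1 cells. Which cells gave this signal in the sorted samples was not tested.

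Signal for each of the 8 genes was measured in all 6 groups. A probe of each gene was well above background on 18 of 18 arrays, except for Krt8, which was so on 17 of 18. The second probes of Foxn1, Krt8 and Prss16 reached this on 15, 17 and 4 arrays. This is a weak criterion, since most probes of the array met it. The plot of levels by array shows each value.

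**Figure D1:**
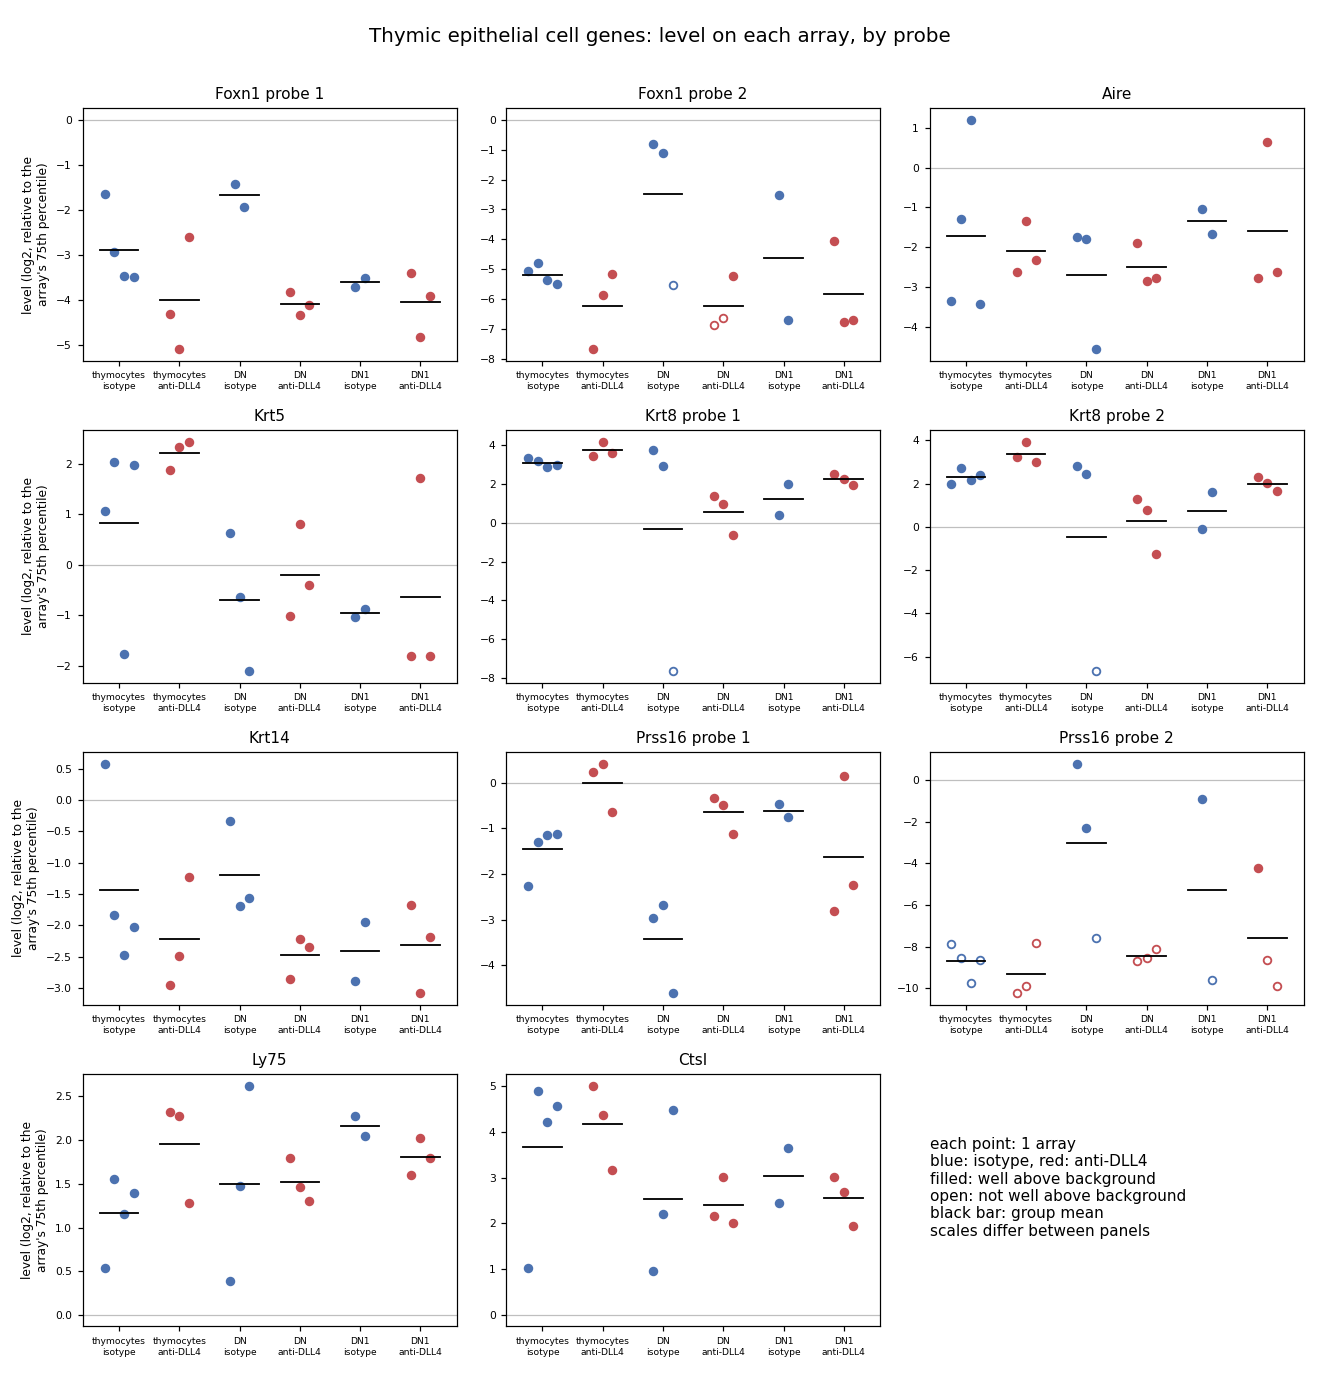
Level of each probe (log2 of processed signal relative to the array's 75th percentile) on each array, in 6 groups, with the group mean as a bar and open points where the spot was not well above background. Krt8 is high in all thymocyte arrays (2.86 to 4.18 for probe 1) and drops to -7.65 on a single isotype DN array.

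In total thymocytes 0 of 10 tested probes of these genes passed limma's test at an adjusted p under 0.05 (1.16% of all 34920 probes did), and 1 was at an unadjusted p under 0.05. Relative to the median of all tested probes, which was -0.42, 7 of the 10 were higher and 3 lower with anti-DLL4, with a median of 1.01 log2 units. The treated and isotype arrays did not overlap for 3 of 10 probes, all higher with anti-DLL4, against 13.7% of all probes. These were both probes of Krt8 and probe 1 of Prss16. Differences and intervals below are relative to the median of all tested probes, whereas each p-value tests the unshifted difference. An interval can therefore exclude 0 where the p-value does not pass.

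In DN cells 1 of 11 probes passed, probe 1 of Prss16, which was higher with anti-DLL4, where 3.72% of all 34253 probes passed in either direction and 2.33% passed higher. At an unadjusted p under 0.05 there were 4. The median of the 11 probes was 0.67, with 7 higher and 4 lower than the median of all probes, which was -0.65. Arrays did not overlap for 4 of 11 probes, against 31.5% of all probes. Prss16 probe 1 was the one of these that was higher, while Foxn1 probe 1, Krt14 and Prss16 probe 2 were lower with anti-DLL4.

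In DN1 cells 0 of 11 probes passed (0.109% of all 36661 did), and 0 had an unadjusted p under 0.05. Their median was -0.32 relative to that of all probes, which was -0.03, with 4 higher and 7 lower. Arrays did not overlap for 2 of 11 probes, Krt8 probe 2 (higher) and Ly75 (lower), against 18.3% of all probes. The 3 differences between the treatment effects of the populations gave 0 of 11 calls each. All probes gave 0.0107% for DN minus thymocytes, 0.0893% for DN1 minus thymocytes and 0.137% for DN1 minus DN cells. At an unadjusted p under 0.05 they held 0, 1 and 1 members.

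**Figure D2:**
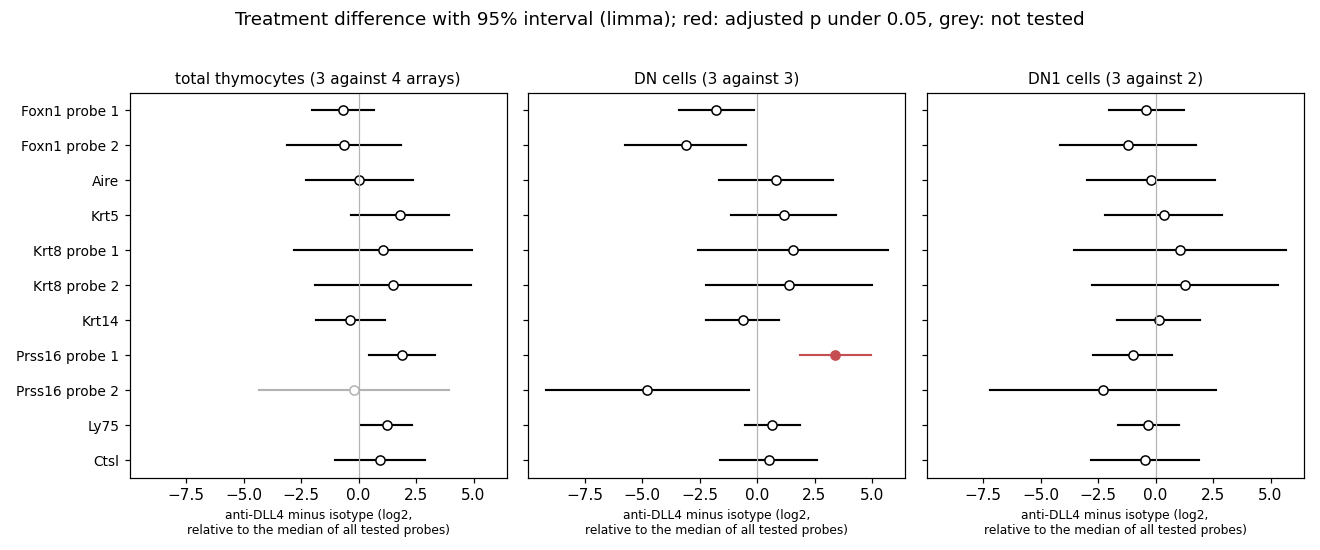
Difference between anti-DLL4 and isotype arrays for each probe in the 3 populations (log2, relative to the median of all tested probes, with 95% intervals from limma). Calls come from the unshifted differences. The call in red is Prss16 probe 1 in DN cells at 3.41, and the second Prss16 probe lies on the other side of 0, at a fitted -4.78 against treated arrays that were not well above background.

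Foxn1 encodes the transcription factor on which thymic epithelium depends for its development. Probe 1 was dim, with processed signals of 43.07 to 254.8. Its levels were -1.65, -2.93, -3.47 and -3.49 in isotype thymocytes and -4.3, -5.09 and -2.59 in anti-DLL4 thymocytes. In isotype DN cells it stood at -1.42 and -1.93 on replicates 1 and 2. Replicate 3 was marked as an outlier spot and left out, so n = 2 there. Anti-DLL4 DN cells were lower, at -3.82, -4.33 and -4.11, and did not overlap with the controls. DN1 cells gave -3.72 and -3.5 with isotype and -3.39, -4.83 and -3.9 with anti-DLL4.

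The difference for Foxn1 probe 1 in DN cells was -1.77 ± 0.76 log2 units (SE, 95% interval -3.39 to -0.15, adjusted p = 0.0837), which did not pass. Probe 2 read -0.81, -1.11 and -5.54 in isotype DN cells and -6.86, -6.65 and -5.22 in anti-DLL4 DN cells. Of these 6 spots, 3 were not well above background, the isotype spot at -5.54 and the treated ones at -6.86 and -6.65. Its difference was -3.11 ± 1.25 (adjusted p = 0.0906). Isotype replicate 3 was already left out for probe 1, so a fit without that array uses the same probe 1 values. Its outcome for probe 1 thus comes from the other probes of the array. Without isotype replicate 3 both probes passed, probe 1 at -1.7 (adjusted p = 0.0338) and probe 2 at -4.58 (adjusted p = 0.0083). So did 7985 of all 34015 tested probes, 6180 of them lower with anti-DLL4, against 1273 of 34253 with all arrays. What remains then as the control are the 2 dimmest arrays. Probe 1 read lower on stronger arrays, with r = -0.8 between level and log2 of the 75th percentile over 17 arrays. Across the 29659 probes well above background on at least 12 arrays that r had a median of -0.16, and 8.21% lay below -0.8. The part of array strength in the Foxn1 values was not tested. The probes of Foxn1 had r = 0.69 with each other over 17 arrays.

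In thymocytes Foxn1 differed by -0.69 ± 0.63 (probe 1, adjusted p = 0.451) and -0.64 ± 1.16 (probe 2, adjusted p = 0.685). In DN1 cells the differences were -0.4 ± 0.76 and -1.2 ± 1.39, with an adjusted p of 1 for both. Each interval spanned 0.

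Aire encodes the regulator that lets medullary epithelium transcribe genes of peripheral tissues. Its level was highest on 1 array each of 2 groups that otherwise read low. Isotype thymocytes gave -3.35, -1.28, 1.2 and -3.42, and anti-DLL4 thymocytes -2.61, -1.33 and -2.33. Isotype DN cells gave -1.73, -1.8 and -4.56, and anti-DLL4 DN cells -1.9, -2.84 and -2.78. DN1 cells gave -1.04 and -1.66 with isotype and -2.78, 0.64 and -2.63 with anti-DLL4. The groups overlapped in all 3 populations. The differences were 0.04 ± 1.09 in thymocytes, 0.84 ± 1.17 in DN cells and -0.21 ± 1.31 in DN1 cells (adjusted p = 0.883, 0.928 and 1). Of a list of B-cell genes 8 of 12 passed in thymocytes, all higher, with a median of 4.03 (1.16% of all probes passed). In DN cells 10 of 12 passed, with a median of 4.58 (3.72% of all probes passed). In DN1 cells 0 of 12 passed, with a median of 0.87. The part of B cells in the Aire values was not tested.

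Among the keratins, Krt8 is the type II keratin of simple and cortical epithelium. Probe 1 read 3.36, 3.18, 2.86 and 2.98 in isotype thymocytes and 3.46, 4.18 and 3.62 in anti-DLL4 thymocytes. Every treated array was thus above every isotype array, but the difference of 1.08 ± 1.82 (95% interval -2.79 to 4.95) did not pass (adjusted p = 0.878). The error is estimated over all 6 groups, and isotype DN cells alone had an SD of 6.35. Probe 2 gave 1.49 ± 1.59 (adjusted p = 0.763) and did not overlap either. Within slides 1, 2 and 4, each holding 1 treated and 1 isotype thymocyte array, probe 1 differed by 1.25, 1.76 and 0.43.

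In isotype DN cells Krt8 probe 1 read 3.74 and 2.92 on the 2 dim arrays and -7.65 on replicate 3, where neither Krt8 probe was well above background. Anti-DLL4 DN cells lay between these, at 1.4, 0.99 and -0.65. The fitted difference of 1.55 ± 1.95 (adjusted p = 0.779) therefore averages controls of opposite kinds, and 1 library decides its sign. Without isotype replicate 3 it was -2.04 (adjusted p = 0.0128) and for probe 2 -1.64 (adjusted p = 0.0326), both past the threshold and lower with anti-DLL4. In that setting 7985 of all 34015 tested probes passed, 6180 of them lower. Without the 2 dim arrays both probes passed as higher with anti-DLL4 (adjusted p = 0.00215 and 0.00769). Replicate 3 is then the lone control, is assumed to vary like the other groups and was at background for both probes, so the size was not measured. Both probes gave the same picture on every array, with r = 0.99 and a rank correlation of 0.94 over 18 arrays. Both read the low value on replicate 3, which weighs on r. Within slide 3, the only slide with both kinds of DN array, probe 1 differed by -1.82.

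DN1 cells gave 0.43 and 2 for Krt8 probe 1 with isotype and 2.53, 2.24 and 1.97 with anti-DLL4. The difference was 1.07 ± 2.18 (adjusted p = 1). Within slides 3 and 5 it was 2.16 and 0.11.

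Across the treated samples Krt8 separated the 3 populations, a description made after the values were seen and with no test. Anti-DLL4 thymocytes lay at 3.46 to 4.18, anti-DLL4 DN1 cells at 1.97 to 2.53 and anti-DLL4 DN cells at -0.65 to 1.4. Probe 2 had the same order, at 3 to 3.93, 1.66 to 2.31 and -1.26 to 1.31. Treated DN cells lay wholly below treated thymocytes for 4 of 10 measured probes, those of Krt8, Krt5 and Ctsl, beside 13.4% of all probes that did not overlap in either direction. The same 4 probes were wholly lower in treated DN1 cells than in treated thymocytes (13.8% of all probes did not overlap). Between treated DN1 and DN cells the 2 probes of Krt8 did not overlap, out of 10 (11.9% of all probes).

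Krt18, the usual partner of Krt8 in filaments, was well above background on all 18 arrays. It read 5, 3.81, 3.25 and 3.48 in isotype thymocytes and 0.69, 1.76 and 0.27 in isotype DN cells. On the replicate where Krt8 was below background it was thus the lowest of its group, but still measured. In the control comparison of DN cells with thymocytes it was lower by a difference of -3.33 ± 0.59 (adjusted p = 0.0262). That call was lost in 8 of 20 alternatives, in which the adjusted p ran up to 0.238.

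Krt5 is the basal keratin of medullary epithelium. Isotype thymocytes gave 1.07, 2.03, -1.77 and 1.98, and anti-DLL4 thymocytes 1.87, 2.32 and 2.43. Isotype replicate 3 stood below all the other thymocyte arrays. Isotype DN cells gave 0.63, -0.64 and -2.11, anti-DLL4 DN cells -1.02, 0.81 and -0.41, and DN1 cells -1.03 and -0.88 with isotype and -1.81, 1.71 and -1.81 with anti-DLL4. The difference was 1.8 ± 1 in thymocytes (95% interval -0.32 to 3.93, adjusted p = 0.548), 1.15 ± 1.07 in DN cells (adjusted p = 0.779) and 0.35 ± 1.2 in DN1 cells (adjusted p = 1). None of these passed.

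Krt14 pairs with Krt5 in basal cells, but its levels did not follow those of Krt5, with r = 0.09 over 18 arrays. Isotype thymocytes gave 0.58, -1.83, -2.47 and -2.02, and anti-DLL4 thymocytes -2.95, -2.49 and -1.23. Isotype DN cells gave -0.33, -1.69 and -1.56, above all of the anti-DLL4 DN arrays at -2.85, -2.21 and -2.35. That difference was -0.63 ± 0.75 (adjusted p = 0.266). The other differences were -0.37 ± 0.7 in thymocytes and 0.13 ± 0.84 in DN1 cells (adjusted p = 0.62 and 1). Like Foxn1, Krt14 was higher on weak arrays (r = -0.72 with log2 of the 75th percentile, over 18 arrays), and its top value was that of the dim isotype thymocyte array. Krt14 and Foxn1 probe 1 had r = 0.84 with each other over 17 arrays. The part of array strength in that r was not tested.

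Prss16 encodes a thymus-specific serine protease of cortical epithelium that takes part in making peptides for the selection of CD4 T cells. Probe 1 read -2.26, -1.3, -1.15 and -1.12 in isotype thymocytes and 0.24, 0.41 and -0.65 in anti-DLL4 thymocytes. All treated arrays were higher, with a difference of 1.88 ± 0.68 (95% interval 0.44 to 3.31). Limma's p-values belong to the unshifted difference of 1.46. The unadjusted p was 0.047 and the adjusted p 0.336, so it did not pass. Within slides 1, 2 and 4 the difference was 3.66, 2.47 and 0.16.

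In DN cells probe 1 of Prss16 read -2.96, -2.69 and -4.61 with isotype and -0.33, -0.5 and -1.12 with anti-DLL4. Again all treated arrays were higher, and here the difference of 3.41 ± 0.72 (95% interval 1.88 to 4.95, a 10.7-fold ratio) passed at an adjusted p of 0.0454. Before the shift to the median of all probes it was 2.77, the value that was tested. The call was close to the threshold: of 19 alternatives 7 kept it and 12 lost it, with an adjusted p from 0.00896 (quantile normalization) to 0.271 (normexp background, at 2.11 log2 units). It was lost without any of the 3 treated replicates (adjusted p = 0.0923 to 0.141) and without isotype replicate 1 or 2 (adjusted p = 0.0871 and 0.0705). It was also lost without both dim arrays (4.29, adjusted p = 0.113), though the difference was larger there. All 19 values were above 0. Within slide 3 it was 3.39, with the brightest DN array set against the dimmest.

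DN1 cells showed no such difference for probe 1, at -0.47 and -0.76 with isotype and -2.81, 0.14 and -2.24 with anti-DLL4 (-0.99 ± 0.81, adjusted p = 1). The effect in DN1 minus that in DN cells was -4.4 ± 1.08, with an unadjusted p of 0.00309 and an adjusted p of 0.217 (0.0577 to 0.539 over 24 alternatives). That in DN1 cells minus that in thymocytes was -2.86 ± 1.05 (adjusted p = 0.676). The difference between populations did not pass in either case.

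Probe 2 of Prss16 gave the opposite picture in DN cells. It was not well above background on any of the 7 thymocyte arrays or the 3 anti-DLL4 DN arrays. In isotype DN cells it read 0.8 and -2.3 on the dim replicates 1 and 2 and -7.58, not well above background, on replicate 3. In DN1 cells it was well above background on 1 isotype array, at -0.91, and 1 treated array, at -4.2. The isotype DN cells were at least 7.2-fold higher than the anti-DLL4 DN cells (adjusted p = 0.119). They were at least 12.3-fold higher than isotype thymocytes (adjusted p = 0.146), and neither passed. Without isotype replicate 3 the first of these passed (adjusted p = 0.0181), as did 7985 of all 34015 tested probes. Its size was not measured, because the treated arrays were at background. The probes of Prss16 had r = -0.42 over 18 arrays, and both were well above background on only 4. The direction of Prss16 in DN cells therefore depends on the probe. With log2 of the 75th percentile probe 1 had r = 0.58 and probe 2 r = -0.51 over 18 arrays, and the part of array strength in either value was not tested.

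**Figure D3:**
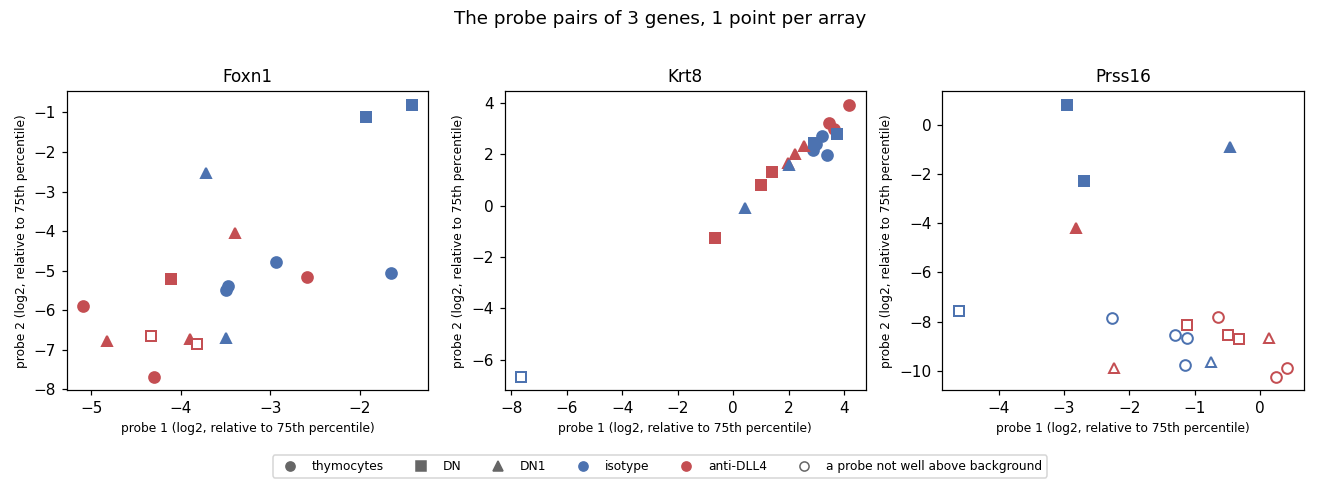
Level of probe 2 against level of probe 1 for the 3 genes with 2 probes, 1 point per array, with open points where a probe was not well above background. The Krt8 probes fall on a line (r = 0.99, rank correlation 0.94), and those of Foxn1 follow each other more loosely (r = 0.69). Those of Prss16 had r = -0.42, and both were well above background on only 4 of 18 arrays.

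Ctsl encodes cathepsin L, a lysosomal protease that trims peptides for MHC class II in cortical epithelium. Isotype thymocytes gave 1.02, 4.89, 4.22 and 4.56, and anti-DLL4 thymocytes 5.01, 4.37 and 3.17. The low value was again that of the dim isotype replicate 1. Isotype DN cells gave 0.96, 2.2 and 4.47, anti-DLL4 DN cells 2.17, 3.01 and 2.02, and DN1 cells 2.44 and 3.65 with isotype and 3.02, 2.69 and 1.95 with anti-DLL4. The differences were 0.93 ± 0.92, 0.5 ± 0.99 and -0.46 ± 1.1 in thymocytes, DN and DN1 cells (adjusted p = 0.806, 0.937 and 1). None of them passed. The 12 macrophage genes, which mark other cells rich in Ctsl, had medians of 1.09, 1.22 and -1.59 in the same comparisons. Of these genes 0, 2 and 0 passed, and both calls in DN cells were higher, where 1.16%, 3.72% and 0.109% of all probes passed.

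Ly75 encodes the endocytic receptor DEC-205 of cortical epithelium and dendritic cells. It varied least among the members, reading 0.54, 1.56, 1.16 and 1.4 in isotype thymocytes and 2.32, 2.28 and 1.28 in anti-DLL4 thymocytes. Isotype DN cells gave 0.39, 1.47 and 2.62, and anti-DLL4 DN cells 1.79, 1.46 and 1.3. DN1 cells gave 2.27 and 2.05 with isotype and 1.6, 2.02 and 1.8 with anti-DLL4, all treated arrays just below. The differences were 1.22 ± 0.52 in thymocytes (95% interval 0.11 to 2.32, adjusted p = 0.508), 0.67 ± 0.56 in DN cells (adjusted p = 0.985) and -0.32 ± 0.62 in DN1 cells (adjusted p = 1). Unshifted they were 0.79, 0.02 and -0.35, and the p-values belong to these. The interval ran from -0.52 to 1.85 in DN cells and from -1.64 to 1 in DN1 cells, so these data do not show that Ly75 stayed the same. Genes of conventional dendritic cells stood at 1.66, 3.47 and -0.1 in these comparisons (median of 10 genes). They had 2, 6 and 0 calls, all higher, where 1.16%, 3.72% and 0.109% of all probes passed. Their part in the Ly75 values was not tested.

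The comparison of sorted with unsorted isotype cells asks whether epithelial RNA was lower once cells had been sorted. For DN cells against thymocytes 0 of 11 probes passed limma's test (1.13% of all probes did) and 3 had an unadjusted p under 0.05. Of the 11, 8 were lower in DN cells and 3 higher, with a median of -1.34. Krt8 probe 1 was at -3.78 ± 1.82 (adjusted p = 0.304), Krt5 at -1.89 ± 1 (adjusted p = 0.398) and Prss16 probe 1 at -2.31 ± 0.68 (adjusted p = 0.148). Foxn1 was on the other side, at 0.86 ± 0.72 (probe 1) and 2.34 ± 1.16 (probe 2, adjusted p = 0.218). Groups did not overlap for 2 of 11 probes, those of Prss16, in opposite directions, against 14.1% of all probes. Without isotype DN replicate 3 the second probes of Foxn1 and Prss16 passed as higher (adjusted p = 0.0249 and 0.0202), Foxn1 by 3.79. In that setting 3795 of all 35710 tested probes passed, 2880 of them higher. The size for Prss16 was not measured, since its thymocyte arrays were at background. Without the 2 dim arrays both probes of Krt8 passed as lower (adjusted p = 0.000145 and 0.00288), but against a lone DN array on which neither was well above background, so these sizes were not measured either.

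For DN1 cells against thymocytes 0 of 10 probes passed (1.2% of all probes did), and 0 had an unadjusted p under 0.05. The median was -0.34. Groups did not overlap for 5 of 10 probes, against 30.3%: Prss16 probe 1 and Ly75 were higher in DN1 cells, and Foxn1 probe 1 and both probes of Krt8 lower. Ly75 was at 1.33 ± 0.59 (adjusted p = 0.507) and Krt8 probe 1 at -1.55 ± 2.06 (adjusted p = 0.737). For DN1 against DN cells 0 of 11 passed (1.1% of all probes did), 2 had an unadjusted p under 0.05 and the median was 1.16. Groups did not overlap for 4 of 11 probes against 37.3%, Aire and Prss16 probe 1 being higher in DN1 cells and Foxn1 probe 1 and Krt14 lower. Prss16 probe 1 stood furthest from 0, at 3.47 ± 0.81 (adjusted p = 0.124). Comparisons that share the isotype DN arrays share their weak signals.

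Other genes of thymic epithelium were counted from lists of cortical, medullary and general epithelial genes, with 1 probe, the brightest, for each gene. Of 16, 16 and 12 listed genes, 14, 16 and 12 were found by name on the array. Psmb11, the thymoproteasome subunit of cortical epithelium, and Tbata were not analysed here. On all 18 arrays 5, 7 and 4 genes of these lists were well above background, and for comparison 6 of 12 genes of a list for epidermal keratinocytes, cells that the thymus does not hold as a layer. In anti-DLL4 thymocytes the mean of the cortical list ran from -3.47 to -2.41 against -4.73 to -3.52 with isotype, and that of the general list from -2.99 to -2.31 against -4.89 to -3.13. On treated arrays 13 of 14 cortical genes were well above background, against 10 to 11 on isotype arrays. Genes at background enter these means with their background readings, among them Il7, Eya1, Enpep and Cdh1 on some or all isotype thymocyte arrays. The medullary list overlapped, at -3.47 to -1.54 against -4.22 to -2.56. The keratinocyte list overlapped too, at -5.56 to -3.79 against -5.09 to -3.04.

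In thymocytes 2 of 13 tested cortical genes passed, both higher, 0 of 15 medullary genes and 1 of 12 general genes, also higher, with medians of 1.58, 1.14 and 1.55. Higher calls made up 0.925% of all probes. Il7, the cytokine that sustains early lymphocytes, read -2.25, -2.51 and -3.68 with anti-DLL4 and was not well above background on any isotype array. It was at least 18.2-fold higher (adjusted p = 0.00136), a call lost with normexp background (adjusted p = 0.253). Its other probes were too dim for the model. Eya1, a transcriptional co-activator needed to form the thymus, read -1.65, -0.53 and -1.38 against -5.28, -8.51, -8.15 and -8.84, of which 3 isotype spots were not well above background. Its difference was 6.93 ± 0.83 (adjusted p = 0.00132), and 19 of 19 alternatives kept the call, with values of 2.91 to 7.62. A second, dimmer probe of Eya1 was too weak to be tested there.

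Eya1 was not low in sorted cells, however. Isotype DN1 cells read -0.04 and 0.76, and the control comparison of DN1 cells with thymocytes gave 8.39 ± 0.94 (adjusted p = 0.000771). The second probe of Eya1 was tested there and did not pass, at 1.03 (adjusted p = 0.736). Cdh1, the adhesion molecule E-cadherin, differed by 5.38 ± 1.14 in thymocytes (adjusted p = 0.0475), and 12 of 19 alternatives lost that call. That size includes isotype thymocyte replicate 2 at -8.67, not well above background, while the other isotype thymocyte arrays read -4.2, -3.15 and -3.24.

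In DN cells 1 of 12 cortical genes passed (higher), 3 of 14 medullary genes (2 higher and 1 lower) and 1 of 10 general genes (lower), with medians of 0.39, -0.35 and -0.73. Of all probes 3.72% passed in either direction and 2.33% as higher. Enpep, an aminopeptidase of cortical epithelium that is also the BP-1 antigen of B-cell precursors, read 2.35, -1.64 and 1.7 with anti-DLL4 and was not well above background with isotype. It was at least 89.9-fold higher (adjusted p = 0.00263). Enpep was the one epithelial-list gene that passed in DN1 cells too (9.17 ± 1.47, adjusted p = 0.0289), with 1 of 2 isotype arrays well above background, where 9 of 17 alternatives kept the call. Cd40 and Relb, which both act in medullary epithelium and in B cells and dendritic cells, were higher by 4.09 ± 0.52 and 4.15 ± 0.63 (adjusted p = 0.00188 and 0.00605). The other probe of Cd40 passed too, at 4.06 (adjusted p = 0.00851). Of 19 alternatives 17 kept the call of Cd40, 17 that of Enpep and 16 that of Relb. Without the 2 dim isotype arrays, which leaves a lone isotype array, the calls of all 3 genes were lost. These 3 genes are therefore shared with cells whose lists moved in the same samples, and the part of those cells was not tested. Avil, a marker of tuft cells, was at least 6.78-fold lower (adjusted p = 0.0284), a call that 8 of 15 alternatives kept. Ehf, an epithelial transcription factor, was lower by a difference of -3.79 ± 1.05 (adjusted p = 0.0296). Other probes of Ehf gave 2.61 and 0.16, and its call was lost without the dim arrays (adjusted p = 0.68).

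In DN1 cells 1 of 14 cortical genes passed and 0 of 15 medullary and 0 of 12 general genes, with medians of 0.06, -0.22 and 0.17. Of all probes 0.109% passed. The cortical list had its means at -3.16 to -2.68 with anti-DLL4 and -4.33 to -4.03 with isotype. These means include Enpep, and also Il7, which was not well above background with isotype, whereas the list's median difference was 0.06. For Avil the fitted difference between the effects in DN1 and DN cells passed, but it rests on a pair of groups at background. Avil read -2.46, -5.5 and -6.43 with anti-DLL4 in DN1 cells and was not well above background with isotype. In DN cells the isotype arrays read -0.98, -2.75 and -5.61, the last not well above background, and no treated array was well above background. The adjusted p of the difference was 0.0489, and 7 of 24 alternatives kept the call. Its size was not measured.

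In the comparison of isotype DN cells with isotype thymocytes, 1 of 13 cortical genes passed (Eya1, higher), 2 of 15 medullary genes (Avil higher, Relb lower) and 1 of 10 general genes (Krt18, lower). The medians of these lists were -0.49, -0.26 and 1.21. Relative to the median of all probes, 6 of 13, 7 of 15 and 7 of 10 genes were higher in DN cells. Of all probes 1.13% passed. Alternatives kept the call of Eya1 in 16 of 20, that of Avil in 11 of 16 and that of Relb in 10 of 20, where its adjusted p reached 0.722. The second probe of Eya1 gave 0.79 (adjusted p = 0.342). Of the macrophage genes 7 of 12 passed, all lower, with a median of -3.65.

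**Figure D4:**
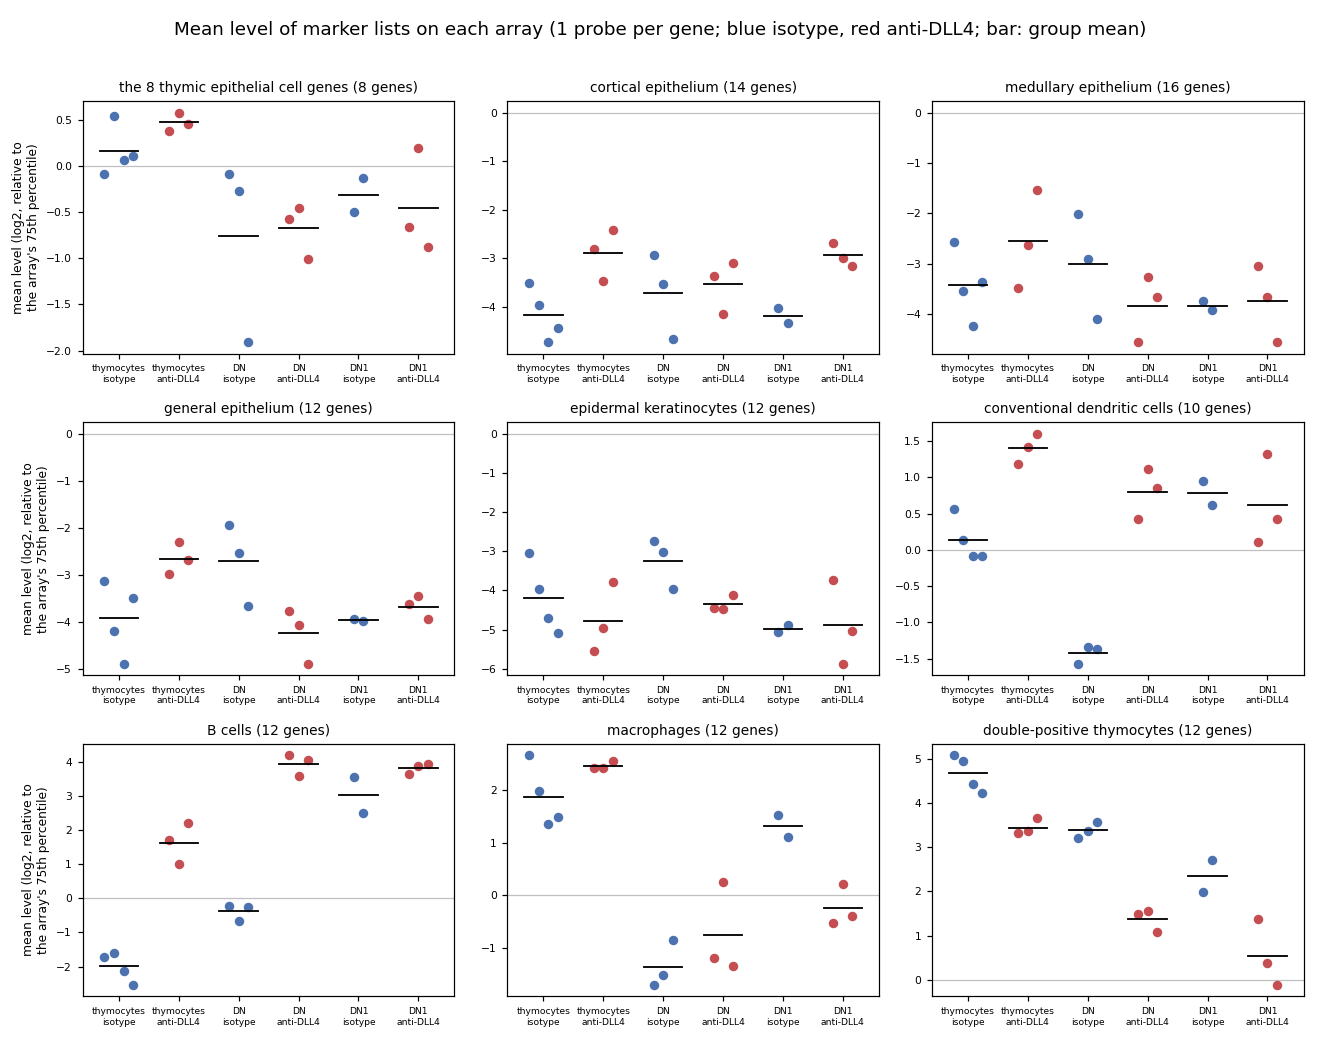
Mean level of 9 gene lists on each array (log2 relative to the array's 75th percentile), by group, with the group mean as a bar. The 8 genes average 0.38 to 0.58 in anti-DLL4 thymocytes and -0.09 to 0.54 in isotype ones, while B-cell genes move from -2.54 to -1.61 up to 1 to 2.2.

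B-cell genes averaged 3.59 to 4.2 in anti-DLL4 DN cells against -0.67 to -0.21 with isotype. Conventional dendritic cell genes averaged 0.43 to 1.11 against -1.57 to -1.34. Genes of fibroblasts and endothelium, the other stromal cells of the thymus, had 1 of 10 (lower) and 0 of 9 calls in DN cells. In thymocytes they had 1 of 9 (lower) and 0 of 9, and in DN1 cells 0 of 10 and 0 of 9. All probes gave 3.72% in DN cells, 1.16% in thymocytes and 0.109% in DN1 cells.

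By profile over the 18 arrays, the nearest genes to each member were as follows, as a description that shares array strength and cell mixture. For Foxn1 they were Oscar (r = 0.98) and A230106M20Rik (0.97), over 17 arrays. For Krt14 they were Mylk2 and Lcn12 (r = 0.93 for both). For Krt8 they were Cd209d and Olfm1 (r = 0.81 for both), and for Krt5 Sp6 (r = 0.82) and Cbr2 (r = 0.81). For Prss16 they were Fcgrt (r = 0.89) and Il18rap (r = 0.88), and for Aire BC038613 (r = 0.72) and Slc27a4 (r = 0.71). For Ly75 they were 2310057M21Rik and Parp8 (r = 0.88 for both), and for Ctsl Tspan3 (r = 0.93) and Tbcel (r = 0.91). No member was among the 2 nearest genes of another. Between members, r ran from -0.77 (Foxn1 and Ly75) to 0.84 (Foxn1 and Krt14), and Krt5 and Krt8 had 0.53. Foxn1 had r = 0.34 with Krt8 and -0.06 with Krt5, and Krt14 had r = 0.1 with Krt8.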

How the data were processed

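The authors deposited scanner files whose spots hold Cy3 intensity, per the file headers from Agilent Feature Extraction 9.5.3.1 (version 9.5 per the submitters' processing notes), with background taken off and a trend across each array removed, and not normalized between arrays. Per the labels' protocols, RNA went through a 2-round amplification before labelling. Deposited flags of 0 or 1 gave spots well above background and outlier spots, and the files gave mm8 positions. The authors' deposited series matrix holds a linear ratio for 43225 of these probes. On the log2 scale it followed the scanner values minus the array percentile and the probe median, within 0.05 for 69.7% to 70.7% of probes per array, and column medians were 0.638 to 1.423. Why the rest differed is not given in the sources used here, and the deposited ratio served only as an alternative.

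Here, the processed signal was scaled to the 75th percentile of each array over its non-control spots and logged (log2), after dropping outlier spots and averaging spots of a probe. limma (3.58.1, R 4.3.3, with data.table at version 1.17.8) was fitted with 6 group means to probes well above background on 2 or more of 18 arrays. A probe was tested where 2 or more arrays of the compared groups reached this, and called at a two-sided Benjamini-Hochberg adjusted p under 0.05 over all tested probes. Differences are printed relative to the median of all tested probes, while calls come from unshifted values. A bound ("at least") sets the bright group's mean against, per array of a group never well above background, the higher of the dim probe's value and the lowest value well above background. Such a bound compares group means and leaves out the spread between arrays. Intervals are 95%, and the number of arrays limits the precision. The 18 arrays lay on 6 slides and shared 1 scan day. Alternatives were other scalings (quantile, median, another percentile), normexp background (offset 50), other filters, slide and replicate blocks, fewer groups, the brightest probe, the deposited ratio and arrays left out. Median scaling and the replicate block over all populations were chosen after seeing the data.

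The 8 genes and the gene lists were chosen with earlier results of these data known. All probes of the 8 genes are named, as are epithelial-list genes that were called and the 2 nearest genes to the brightest probe of each member. Krt18 was named as the partner of Krt8. The model was tested on simulated data.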

Additional observations from a re-analysis of the deposited data

Results flagged for a closer look

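Of the 11 probes, whose 4 isotype thymocyte arrays could be checked for a sample far from the others, 1 had such a sample. Prss16 probe 1 read -2.26 on replicate 1 and -1.30, -1.15 and -1.12 on the others, a gap of 0.842 of the whole range. Chance flags about 1 in 20 such groups. The same array, with a 75th percentile of 524, also held the lowest Ctsl (1.02) and the highest Krt14 (0.58) of the group, neither of them past that limit. The part of array strength in these values was not tested.

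Avil, a tuft cell gene of the medullary list, had a fitted treatment effect that differed between DN1 and DN cells by limma's test of that difference (9.34 ± 1.83 log2 units, adjusted p = 0.0489). Avil was well above background on 3 of 3 treated and 0 of 2 isotype DN1 arrays, and on 0 of 3 treated and 2 of 3 isotype DN arrays. The fitted value therefore uses background readings in a pair of groups and is not a measured size. Of 24 alternatives 7 kept the call, with an adjusted p up to 0.481.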

How the results depend on the processing

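Over 57 results, 968 of 1050 alternative values kept their direction and side of the threshold, 58 reversed, 12 passed the threshold and 12 no longer passed. Of the 57 results 34 never reversed, and 2 reversed values were called, both of Krt8 in DN cells. The count in DN cells, 1 as reported, was 0 with no filter on dim probes, normexp, only the groups compared, the percentile over probes always well above background, the replicate block within a population and slide as a fixed block. It was 2 with the deposited table and 2 without the 2 dim isotype DN arrays, and 0 to 6 leaving out single replicates, with 6 without isotype DN replicate 3. Isotype DN cells against thymocytes, at 0 as reported, gave 1 with quantile normalization, 2 without the dim arrays and 0 to 2 leaving out single replicates. Isotype DN1 against DN cells, also 0, gave 1 with quantile normalization and 2 without the dim arrays. Without isotype DN replicate 3 the calls over all probes rose too, to 7985 of 34015 in DN cells. The cause was not tested.

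Replicate numbers did not pair the samples, with correlations of deviations from -0.22 to 0.27, and the replicate block within a population moved Prss16 probe 1 in DN cells to 3.42 (adjusted p = 0.108). With normexp, Aire read -0.52 in thymocytes, 0.33 in DN1 cells and -0.24 in isotype DN1 against thymocytes, and Ly75 0.03 in DN1 cells. With quantile normalization, Aire read -0.12 in thymocytes, Ctsl -0.18 and Ly75 0 in DN cells, and Krt14 0.07 and Ly75 0.6 in isotype DN cells against thymocytes. With a replicate block, Aire read -0.45 in thymocytes and 0.24 in DN1 cells, Krt14 0 in DN1 cells, Ly75 0.1 in isotype DN cells against thymocytes and Ctsl 0.17 in isotype DN1 cells against thymocytes. With slide as a fixed block, Aire read -0.41 in thymocytes and 0.05 in DN1 cells, Krt14 0.01 in isotype DN cells against thymocytes, and in isotype DN1 cells against thymocytes Aire read -0.37, Ctsl 0.12, Foxn1 probe 1 0.08 and Prss16 probe 1 -0.09. The stricter filter gave Krt14 0.13 and Ly75 0.22 in isotype DN cells against thymocytes. Without the 2 dim arrays, Ctsl read -1.74 and Ly75 -0.78 in DN cells, and in isotype DN cells against thymocytes Ctsl 0.89, Foxn1 probe 2 -0.26 and Ly75 1.56.

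Leaving out single replicates, the thymocyte values ran from -0.62 to 1.09 (Aire), -0.07 to 1.67 (Ctsl) and -0.64 to 0.19 (Krt14). In DN cells they ran from -0.03 to 1.18 (Aire), -0.42 to 1.53 (Ctsl), -2.04 to 3.45 and -1.64 to 2.89 (Krt8 probes 1 and 2) and -0.03 to 1.29 (Ly75). In DN1 cells they ran from -1.45 to 0.57 (Aire), -1.11 to 0.23 (Ctsl), -3.22 to 0.85 (Foxn1 probe 2), -0.39 to 0.68 (Krt14) and -0.95 to 1.13 (Krt5). In isotype DN cells against thymocytes they ran from -0.4 to 0.49 (Krt14) and -0.67 to 0.67 (Ly75), and in isotype DN1 cells against thymocytes from -1.29 to 0.41 (Ctsl) and -1.09 to 2.95 (Foxn1 probe 2). The members' median in DN cells, 0.67 as reported, was -0.75 without isotype DN replicate 3. In DN cells the median of all tested probes was -0.65 as reported, -0.02 with quantile normalization, -1.28 with normexp and 0.19 with median scaling. Spots not well above background limit Foxn1 probe 2 and Prss16 probe 2 most.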
